A study of Mus musculus with 4 samples.

Results

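The cells described here are noncycling Rag1 positive thymocytes found among single cells of the mouse aortic arch. They were selected on their own counts of unique molecular identifiers (UMIs, each standing for 1 captured RNA molecule): at least 1 UMI of Rag1 and at least 1 of Cd8b1, none of Pdgfra, and at most 2 of Mki67 and Top2a together. Among cells with 200 to 6000 detected genes and at most 15% mitochondrial UMIs, 246 of 14148 met the rule, which is 1.74%. These 5 genes chose the cells, so their levels are given as a description only and nothing rests on them.

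The cells came from male mice, from the arch of the aorta, the large vessels leaving it and the tissue around them, and live cells were sorted as those that excluded DAPI. Each library is a single pool: 4 normocholesterolemic Nrf2flox/flox mice (Lox CTR), 4 normocholesterolemic Nrf2Cdh5tKO mice (KO CTR), 3 atherosclerotic Nrf2flox/flox mice (Lox HFD) and 3 atherosclerotic Nrf2Cdh5tKO mice (KO HFD). All of them carried the floxed Nfe2l2 allele (C57BL/6-Nfe2l2tm1.1Sred/SbisJ), and the KO mice also carried Cre under the Cdh5 promoter (B6;129-Tg(Cdh5-cre)1Spe/J), which is active in endothelium and in some blood cells. All groups entered the study at an age of 3 months, and the atherosclerotic mice then had 21 weeks of high-fat diet combined with an injection that is not described here, while control mice stayed on standard diet. Values in sets of 4 follow the order Lox CTR, KO CTR, Lox HFD and KO HFD, and sets of 3 leave out KO HFD. Levels are given as CPM, the UMIs of a gene per 1000000 summed UMIs of the population in that library.

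Nfe2l2, which encodes Nrf2 and is the targeted gene (chr2:75675513-75704641, minus strand), was at 37.1 (exact Poisson 95% interval 21.2 to 60.3), 119 (88.8 to 156), 98.7 (57.5 to 158) and 81.9 CPM (16.9 to 239) in the thymocytes, from 16, 52, 17 and 3 UMIs. It was higher in the library labelled KO CTR than in Lox CTR, and the intervals of the high-fat pair overlapped. Cdh5, whose promoter drives Cre, had 0 UMIs in thymocytes, which does not show whether Cre was active earlier in their precursors. Cre removes exon 5 and these counts do not show which exons were read, so the level of Nfe2l2 is a weak check. It does not follow the KO label, and each group is therefore meant as the library so labelled.

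Rag1 and Rag2 encode the recombinase that cuts antigen receptor genes, and their joint expression marks lymphocytes that are still assembling a receptor. In the thymus, dividing CD4 CD8 double positive cells carry a rearranged beta chain, then leave the cell cycle, rearrange the alpha chain and are tested for recognition of self MHC. Cells that pass lose Rag expression, express CD69, Bcl2 and the interleukin 7 receptor, become CD4 or CD8 single positive and leave through the receptor S1pr1. The thymus lies next to the aortic arch, and the healthy artery wall is not a known site of T cell development.

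In all, 98754487, 43717402, 12276546 and 24184211 UMIs had been counted, over 8512, 3460, 1160 and 2467 barcodes. Thymocytes numbered 97, 96, 42 and 11. They were small in RNA: the median thymocyte had 3734 UMIs and 1743 genes, against medians of 12133, 14152.5, 10963 and 9200.5 UMIs for all kept cells of the 4 libraries. Cells of the same Rag1 and Cd8b1 gate with more than 2 UMIs of Mki67 and Top2a are called cycling cells here. They numbered 194 (71, 77, 40 and 6) and had a median of 13466 UMIs. Other T cells were taken as cells with at least 2 UMIs of Cd3d, Cd3e and Cd3g together, none of Rag1 or Dntt and none of Pdgfra. There were 447 of them (220, 101, 65 and 61), with a median of 6850 UMIs.

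The limit on cycle genes fell in a sparse stretch. There were 223 thymocytes with no UMI of Mki67 or Top2a, 15 with 1 and 8 with 2, while 5, 4 and 5 cells just outside had 3, 4 and 5 UMIs, and 169 cells had more than 10. The lower limit on Rag1 was not in a gap: 34, 34, 37, 26 and 40 thymocytes had 1, 2, 3, 4 and 5 Rag1 UMIs, and the median was 4. Just outside it stood 242 cells with Cd8b1 and no Rag1, of which 26 had a Dntt UMI, and 50 cells had Rag1 and no Cd8b1. The limit on Pdgfra left out 44 cells of the gate (26, 13, 4 and 1), which had a median of 16254 UMIs and included 8 that Scrublet marked as doublets. Scrublet marked 2 of the 246 thymocytes. The libraries shared 32 cell barcodes over all pairs, and no barcode belonged to a thymocyte in more than 1 library. In the thymocytes Lox CTR stands apart from the other libraries in smooth muscle RNA and in the ribosomal RNA-like Gm42418, as given further on, so counts are also given without it.

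The rule did not use Ccr9, Cd4 or Themis. They were picked as thymocyte markers with earlier results of these data known, so their values describe the cells. Ccr9, the receptor for the thymic chemokine Ccl25, was detected in 92.7% of thymocytes and in 19.5% of other T cells. Cd4 was detected in 78.0% and 19.0%, and Themis, a signalling protein needed for thymic selection, in 78.0% and 28.6%. Double positive cells carry CD4 beside CD8, and Cd8b1 was required by the rule. Thymocytes were shallower than other T cells at the median, so depth does not raise these shares; with every cell thinned to 2000 UMIs (227 thymocytes and 419 other T cells were deep enough) they were 81.1% against 11.7% for Ccr9, 58.6% against 8.35% for Cd4 and 59.5% against 13.8% for Themis. Few stromal cells held both Rag1 and Cd8b1: 5 of 1884 smooth muscle cells (0.265%, exact 95% interval 0.0862 to 0.618) and 20 of 4938 fibroblasts (0.405%, 0.248 to 0.625). Their populations had median depths of 15311 and 14906.5 UMIs. Smooth muscle cells had at least 3 Myh11 UMIs and none of Pdgfra, so those 5 are themselves in the gate. Fibroblasts had at least 3 Pdgfra UMIs and lie outside it. Rag1 was found in 12 smooth muscle cells and 58 fibroblasts, and Cd8b1 in 44 and 129. The source of these UMIs was not tested.

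Of the 12 genes of the thymic epithelium list, Foxn1, the transcription factor that defines it, and the keratin Krt5 had 0 UMIs in all 14148 kept cells. Psmb11, the proteasome subunit of cortical epithelium, had 4, 3, 1 and 1 UMIs, Prss16 had 4, 1, 0 and 3, and Aire had 1 UMI in the library labelled KO CTR and none elsewhere. Tbata had 25, 10, 5 and 6. The other genes of the list are not limited to thymic epithelium: Ccl25 had 779, 355, 101 and 155 UMIs, Ly75 397, 178, 68 and 104, Krt8 137, 118, 0 and 12, Epcam 96, 34, 28 and 7, Krt14 3, 58, 0 and 0 and the Notch ligand Dll4 49, 31, 19 and 7. Only 1 cell in Lox CTR and 1 in the library labelled KO CTR held at least 2 of Foxn1, Psmb11, Prss16 and Ccl25. In the thymocytes the 12 genes of the epithelial list summed to 34.8, 38.9, 29.0 and 54.6 CPM, led by Epcam, Ccl25, Ccl25 and Ly75.

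The share of thymocytes differed widely between libraries. It was 1.23% of kept cells in Lox CTR (exact 95% interval 0.998 to 1.5), 3.23% in the library labelled KO CTR (2.62 to 3.93), 4.12% in Lox HFD (2.98 to 5.53) and 0.485% in the library labelled KO HFD (0.243 to 0.867). The intervals of KO CTR and Lox HFD overlap each other, and those of Lox CTR and KO HFD lie below both. The order follows neither diet nor genotype: the KO label goes with the higher share on standard diet and with the lower share on high-fat diet. Each condition is 1 pool, no test between conditions was made, and these intervals cover counting error only. How much thymus was carried over at dissection and how the conditions differ cannot be told apart. The share of fibroblasts with both genes was 0.414% (0.207 to 0.739), 0.397% (0.129 to 0.924), 0.877% (0.181 to 2.54) and 0.147% (0.00373 to 0.818), and only in KO HFD did this interval overlap that of the thymocytes. Of smooth muscle cells 4 of 1251 (0.320%, 0.0872 to 0.817), 0 of 314 (up to 1.17%), 1 of 68 (1.47%, 0.0372 to 7.92) and 0 of 251 (up to 1.46%) held both, and the intervals overlapped those of the thymocytes in Lox HFD and KO HFD.

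Cycling cells of the gate followed the same order over libraries. They were 0.900%, 2.59%, 3.92% and 0.265% of kept cells. Other T cells, at 2.79%, 3.40%, 6.37% and 2.69%, followed that order too, with Lox CTR and KO HFD close together. Of all cells of the gate, 42.3% (34.7 to 50.1), 44.5% (37.0 to 52.2), 48.8% (37.6 to 60.1) and 35.3% (14.2 to 61.7) were cycling, and all these intervals overlap. For the share of thymocytes not all intervals overlap. The cycling part in KO HFD rests on 6 of 17 cells, so its wide interval cannot show that the parts are equal. Among T-lineage cells (thymocytes, cycling cells and other T cells) the thymocytes made up 25%, 35%, 28.6% and 14.1%.

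**Figure D1:**
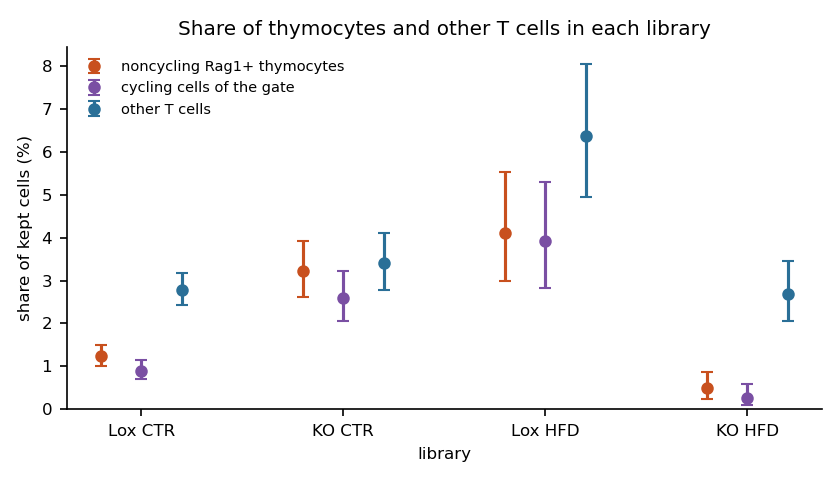
Share of kept cells (y axis, percent) in each of the 4 libraries (x axis) for thymocytes, cycling cells of the same gate and other T cells, with bars for the exact 95% interval, which covers counting error only. Thymocytes are most frequent in Lox HFD (4.12%) and least in KO HFD (0.485%), and the cycling cells and other T cells follow the same order.

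To show where thymocytes differ from the T cells around them, UMIs were summed per library and population and compared with edgeR's quasi-likelihood test with library as a block, over 4 libraries and 5615 genes. Relative to other T cells, thymocytes had more recombination, Cd4 and receptor beta chain RNA, and less RNA of egress, cytotoxic and MHC class I genes. At an adjusted p (Benjamini-Hochberg) under 0.05, 612 genes (10.9%) were higher in thymocytes and 870 (15.5%) were lower. Of the 5615 genes, 1090 were called with no overlap between the libraries of the 2 populations. Without Lox CTR 444 were higher and 689 lower. The median log2 fold change over all genes was -0.03. The p-values measure the spread over 4 pools that differ in genotype and diet. The comparison cells are a mixture: 36.7% of them had a Nkg7 UMI, 24.6% Trdc, 28.6% Cd8b1, 19.0% Cd4 and 0.671% Foxp3. A log2 value is always a difference between populations.

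Of the 5 genes of the recombination and end joining list that were tested (11 were eligible outside the rule), 4 were higher and none was lower, with a median log2 fold change of 2.35. Rag2, which lies at chr2:101624718-101632529 on the plus strand (mm10) beside Rag1, was at 51.1, 34.3, 46.4 and 27.3 CPM in thymocytes and at 0.540, 1.18, 0 and 0 in other T cells, where it had 2 UMIs in all. The groups do not overlap, and the ratio of pooled levels was 75.4 (counting interval 19.7 to 641). Rag1 was required in thymocytes and fixed at 0 in other T cells. The Rag2 difference is thus not independent of the rule and is a description, and the count of 4 higher genes includes it. Xrcc6 encodes Ku70, which binds broken DNA ends before they are joined. It was at 302, 302, 313 and 382 CPM in thymocytes and at 11.3, 17.6, 15.9 and 15.4 in other T cells (log2 fold change 4.09 ± 0.23 SE, adjusted p = 1.27e-06 by edgeR). Desi1, which overlaps Xrcc6 on the other strand, was also higher (3.2 ± 0.23), and reads where genes overlap may not be assignable to either. Dclre1c, the Artemis nuclease that opens hairpin ends, was higher by 2.35 ± 0.25 and Hmgb1, a cofactor of the recombinase, by 0.86 ± 0.10. Dntt, the polymerase that adds bases at the joins, is fixed at 0 in other T cells by the rule. In thymocytes it was at 789, 793, 778 and 1010 CPM.

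Cd4, the coreceptor gene that is independent of the rule, was higher. It was at 381, 434, 499 and 491 CPM against 37.8, 68.2, 50 and 23.1 (log2 fold change 2.94 ± 0.24, adjusted p = 8.6e-06 by edgeR), and Cd8a at 703, 891, 766 and 683 against 37.8, 95.2, 159 and 185 (2.62 ± 0.33). All thymocyte libraries lay above all libraries of other T cells for both genes. Cd8a encodes the partner chain of Cd8b1, which every thymocyte had to hold and 28.6% of other T cells held, so its difference is not independent of the rule and is a description. Of 5 tested genes for receptor chains and CD3, 3 were higher, 1 was lower and 1 passed neither way (median 0.95). Trbc1 and Trbc2, the near-identical constant regions of the beta chain, were higher by 1.78 ± 0.13 and 1.71 ± 0.16, though counting may split reads between them. Trbc1 stood at 2573, 3472, 2438 and 2211 CPM against 435, 841, 598 and 634. Trac, the constant region of the alpha chain, was not called: it stood at 513, 539, 470 and 328 CPM against 290, 465, 523 and 352, with a log2 fold change of -0.09 ± 0.19 and an adjusted p of 0.764 by edgeR. Beta chain RNA was thus above the level of other T cells while the libraries overlapped for alpha chain RNA. Trdc, of the delta chain, was lower by 3.55 on the log2 scale (± 0.32), and Cd247, the zeta signalling chain, was higher by 0.95 ± 0.16.

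Receptor signalling genes were mixed. Of 15 tested, 3 were higher, 3 were lower and 9 passed neither way, with a median of 0.23. Themis was at 376, 464, 459 and 410 CPM against 47.5, 84.6, 79.5 and 92.4 (2.24 ± 0.20). Lck, the kinase that binds the coreceptors, was higher by 1.54 ± 0.21 and the adaptor Lat by 0.91 ± 0.16. The adhesion receptor Cd2 fell by 2.35 (± 0.24) relative to other T cells, Fyn, a kinase of the same Src family as Lck, by 1.83 (± 0.27) and the phosphatase Ptpn22 by 1.5 (± 0.22).

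Of 19 tested transcription factors, 9 were higher, 5 were lower and 5 passed neither way, with a median of 0.36. Myb, needed for the survival of double positive cells, was at 886, 1189, 1202 and 956 CPM against 54.5, 137, 136 and 103 (3.05 ± 0.19, adjusted p = 2.19e-06 by edgeR). Every thymocyte library lay above every library of other T cells. Sox4 (1.95 ± 0.19), Tcf12, which encodes the E protein HEB (1.92 ± 0.22), Tcf7 (1.90 ± 0.17), Satb1 (1.74 ± 0.21) and Bcl11b (1.27 ± 0.16) were higher too, with Runx1 (0.77 ± 0.24) and Ets1 (0.36 ± 0.12). Runx3, which directs the CD8 lineage, was lower by 3.47 (± 0.31), and Id2, an inhibitor of E proteins, by 1.92 (± 0.28). Tox, Gata3 and Ikzf3 were lower by 1.5, 1.20 and 0.95. None of the 3 tested genes of the Notch pathway was called: Notch1, Hes1 and Rbpj had log2 values of 0.40 ± 0.27, 0.84 ± 0.48 and -0.08 ± 0.21.

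**Figure D2:**
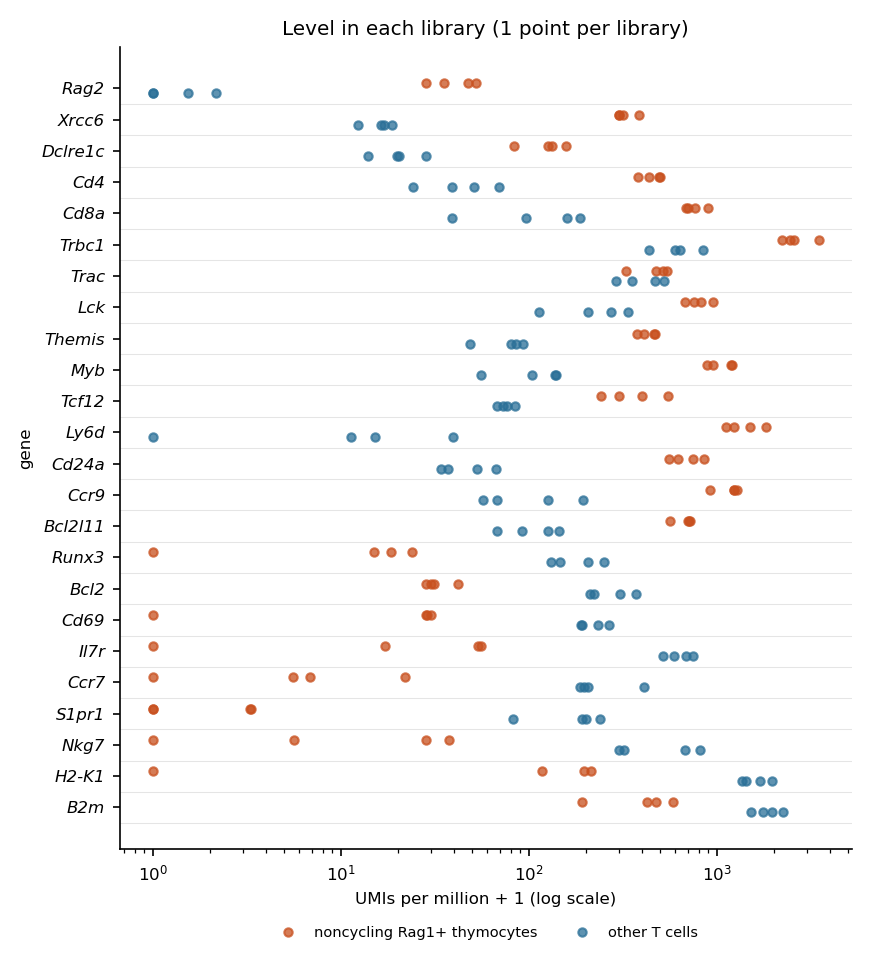
Levels of 24 genes (CPM plus 1, log axis) in thymocytes and other T cells, with 1 point per library. Rag2, Xrcc6, Cd4, Myb, Ly6d and Ccr9 lie higher in all thymocyte libraries, Trac overlaps, and Bcl2, Il7r, Ccr7, S1pr1 and H2-K1 lie lower.

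Of 12 tested genes for thymic homing and surface, 6 were higher and 3 lower (median 1.01). Ccr9 was at 917, 1223, 1236 and 1283 CPM against 55.6, 126, 193 and 66.8 (3.19 ± 0.24, adjusted p = 5.06e-06 by edgeR). Ly6d, a small surface protein of early lymphocytes, was at 1501, 1815, 1114 and 1229 against 10.3, 14.1, 38.6 and 0 (6.32 ± 0.45). Cd24a, the heat stable antigen that is lost on maturation, was higher by 3.52 ± 0.26. Sh2d1a (1.77 ± 0.21), Cd1d1, which presents lipids to NKT precursors (1.53 ± 0.38), and Plxnd1 (1.07 ± 0.28) made up the rest of the higher genes. Il2ra, Cd44 and Cxcr4 were lower by 3.1, 2.53 and 1.06.

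Survival genes moved in different directions. Bcl2l11, which encodes the pro-apoptotic protein Bim, was at 564, 697, 714 and 710 CPM against 91.2, 143, 125 and 66.8 (2.30 ± 0.19), and Pdcd4 was higher by 0.81 ± 0.14. Bcl2, in the list of positive selection, was at 30.2, 41.1, 29.0 and 27.3 against 210, 220, 368 and 303 and fell by 3.2 (± 0.25). Bim RNA was thus high where Bcl2 RNA was low, in every library. Bcl2l1, the survival factor of double positive cells, had a log2 value of 1.05 ± 0.37 and an adjusted p of 0.0606 by edgeR, which does not pass. Of the 9 tested survival genes 2 were higher, 2 were lower (Bcl2a1b and Bax) and 5 passed neither way, with a median of 0.28.

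Genes that mark cells past selection were low. Of 10 tested genes of positive selection, 6 were lower and 2 higher (median -1.06). Cd69 was at 27.8, 27.4, 29.0 and 0 CPM against 232, 264, 191 and 187, and fell by 3.45 (± 0.27). Cd53, Itm2a, Ikzf2 and Egr1 had log2 values of -3.31, -3.1, -0.76 and -0.99, and of these Ikzf2 was not called. Cd27 (1.38 ± 0.22) and Gimap9 (1.03 ± 0.22) were higher. Of 12 tested genes of maturation and egress, 11 were lower and none higher (median -4.52). Il7r, the interleukin 7 receptor, was at 16.2, 52.6, 0 and 54.6 CPM against 684, 515, 591 and 747 (-4.80 ± 0.45), and Ccr7, which leads cells into the medulla and lymph nodes, fell by 4.87 (± 0.44). S1pr1, the exit receptor, had 2 UMIs in all thymocytes against 513 in other T cells, and the inverse ratio of levels was 78.2 (counting interval 21.6 to 648). Klf2, which drives S1pr1, fell by 2.14 (± 0.21). Gimap6 was the gene not called (-0.52 ± 0.21).

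MHC class I genes formed another low group. Of 8 tested, 7 were lower and 1 passed neither way (Tap2, 0.50 ± 0.28), with a median of -1.74. H2-K1 was at 195, 213, 116 and 0 CPM against 1966, 1363, 1427 and 1682 (-3.72 ± 0.33), H2-D1 at 378, 331, 331 and 328 against 2520, 1693, 1861 and 2242 (-2.90 ± 0.13) and B2m, the shared light chain, at 582, 471, 424 and 191 against 2230, 1509, 1755 and 1959 (-2.42 ± 0.21). Classical heavy chains are close paralogs, so the split between H2-K1 and H2-D1 is uncertain, but B2m has no such copy and fell with them. Psmb8, a subunit of the immunoproteasome, fell by 0.62 (± 0.19), Psmb9 by 1.28 and the peptide transporter Tap1 by 2.08.

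Most cytotoxic genes were lower in thymocytes. Of 8 tested, 7 were lower and Gzma passed neither way (0.78 ± 0.73), with a median of -5.37. Gzma was at 60.3, 86.9, 52.2 and 300.3 CPM in thymocytes against 158, 21.2, 2.27 and 28.2. The 12 genes of the list summed to 186, 238, 139 and 328 CPM, led by Id2 or Gzma, against 2805, 2027, 5775 and 4741, led by Ccl5. Ccl5 was at 11.6, 2.29, 0 and 0 CPM against 1351, 863, 3973 and 2886. Nkg7 stood at 4.64, 36.6, 0 and 27.3 against 300.1, 318, 677 and 811. Gzmb had 2 UMIs in thymocytes and 342 in other T cells (inverse ratio 52.2, counting interval 14.3 to 432). With other T cells that had a Nkg7 UMI left out, 432 genes of the whole comparison were higher and 621 lower, over 4415 tested. Of the gamma delta T cell list 3 of 3 tested genes were lower (median -3.55), of the NK cell list 1 of 2 (Klre1, at 0 UMIs in thymocytes and at least 18.1-fold lower, list median -4.05, or -2.19 with this gene at its bound) and of the regulatory T cell list the 1 tested, Ctla4 (-1.30 ± 0.39).

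**Figure D3:**
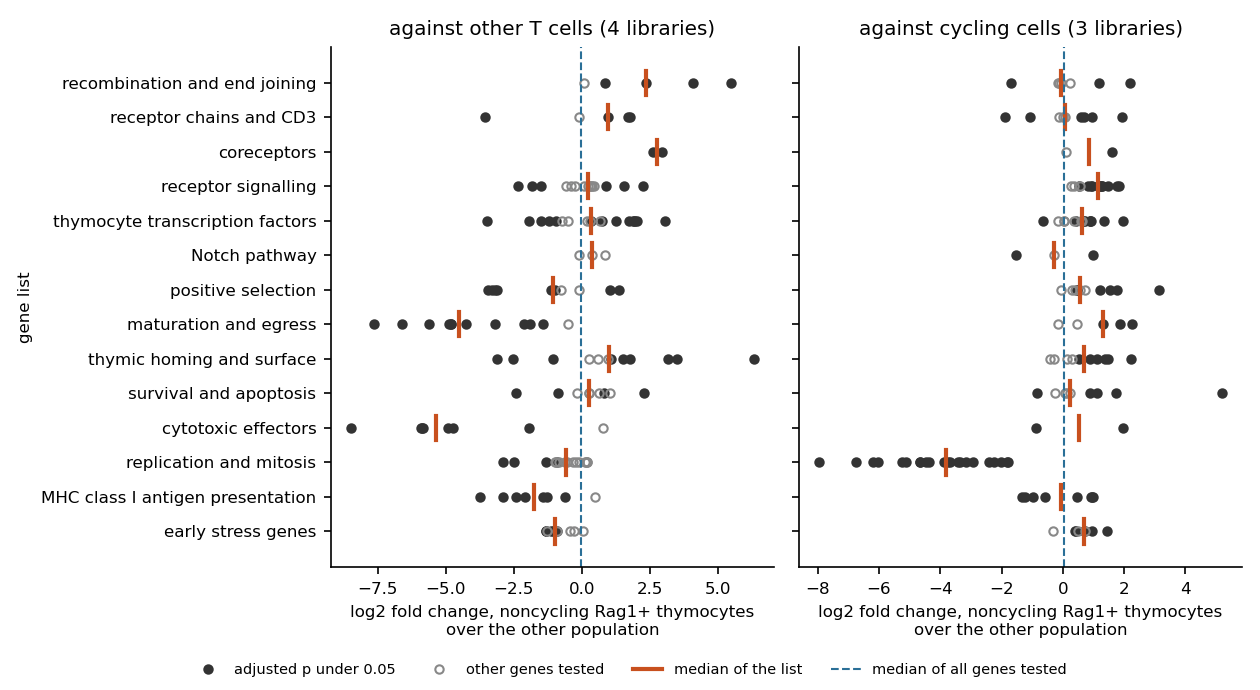
Log2 fold change (x axis) of each tested gene of 14 lists (rows) for thymocytes against other T cells (left, 4 libraries) and against cycling cells (right, 3 libraries). Filled points passed an adjusted p of 0.05, orange bars are list medians and the dashed line is the median of all genes tested (-0.03 and 0.04). Recombination genes lie to the right on the left panel (median 2.35) and maturation genes to the left (-4.52), while signalling genes lie to the right on the right panel (1.16).

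By the rule for named genes (adjusted p under 0.05, the same direction in all libraries, at least 50 CPM in the higher population), the 15 highest genes were Insl5, Dgkeos, Gm525, A930003A15Rik, Ly6d, Arpp21, Tctex1d1, Aqp11, Rapgef3, Endou, Gm15340, Chrna9, Syt13, Gm38405 and Wdr78. The rule also leaves genes of the replication list and of the cell type marker lists out of the ranking. Arpp21, a cAMP-regulated phosphoprotein, was at 478, 690.3, 720 and 573 CPM against 5.94, 12.9, 2.27 and 2.57 (6.1 ± 0.31, adjusted p = 7.76e-07 by edgeR). Endou, an RNA endonuclease, was at 766, 878, 546 and 355 against 10.3, 17.6, 15.9 and 5.14 (5.44 ± 0.24). Aqp11, an aquaporin, stood at 473, 366, 441 and 246 against 8.10, 4.7, 11.4 and 2.57. For these 3 genes the libraries of the 2 populations did not overlap. Dgkeos, Gm525 and A930003A15Rik had 3, 2 and 2 UMIs in other T cells, and their ratios of pooled levels were 283 (95.8 to 1382), 230 (62.4 to 1914) and 216 (58.7 to 1806).

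The 10 genes named as lowest were Trdv4, Cd7, Klrk1, Ccl5, Blk, Rgs1, Fasl, Cd163l1, Gimap4 and Pdcd1. They include genes of gamma delta, natural killer and activated T cells. Klre1, given above with the NK cell list, was left out of this ranking as a marker gene, but its fitted log2 value of -7.90 lies within the range of these 10. Trdv4 had 0 UMIs in thymocytes and was at least 99.9-fold lower, taking the floor of 3 counts over all thymocytes, and Klrk1, Cd7, Blk and Fasl at least 40.6-, 34.4-, 27.8- and 17.4-fold. Rgs1, Cd163l1, Gimap4 and Pdcd1 had 1 thymocyte UMI each, with inverse ratios of 286 (51.2 to 11311), 234 (41.9 to 9264), 198 (35.5 to 7842) and 138 (24.6 to 5445).

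Markers of other cell types were also measured in the thymocytes. The 5 smooth muscle genes summed to 7070, 569, 964 and 1420 CPM, led by Acta2 (3265, 272, 342 and 628), so Lox CTR stood far above the rest. Leaving out the 2 Lox CTR thymocytes marked as doublets took Acta2 there from 1407 to 1040 UMIs. In other T cells they summed to 5177, 5551, 532 and 627, high in both CTR libraries. The 7 fibroblast genes, Pdgfra being fixed at 0, summed to 2063, 775, 1103 and 573, led by Gsn or Dcn. The 8 macrophage genes summed to 673, 1173, 4289 and 928, led by Lyz2 (538, 363, 1962 and 410), so Lox HFD stood highest. Against other T cells, none of 5 fibroblast and none of 5 smooth muscle genes tested was called (medians -0.49 and -0.65; without KO CTR, Tagln at 0.56 and Myh11 at 0.84 were called higher), and 1 of 7 macrophage genes was lower (median -0.47). In cells without a UMI of Col1a1, Col3a1 or Lum, 465 genes were higher and 674 lower of 3958 tested, and the part of macrophage RNA was not tested. Of the endothelial list only Pecam1 was tested and it was higher (1.0 ± 0.29), while Cdh5 had 0 UMIs in the thymocytes. Of the B cell list Ighm was higher (1.5 ± 0.24) and Cd79b passed neither way. The lists for thymic epithelium, dendritic cells, mast and erythroid cells, and parathyroid and adipocytes had no gene that could be tested, and dendritic cell genes had 1, 1, 0 and 0 UMIs. Mast and erythroid genes had 3, 2, 0 and 1 UMIs, and parathyroid and adipocyte genes had 0 in every library. Of 10 early stress genes 5 were lower and none higher (median -0.97). Of 16 tested replication genes, 4 were lower and none higher (median -0.58), a description, since the limit on Mki67 and Top2a held for the thymocytes alone.

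Genes higher in thymocytes often lay next to each other, a pattern that was looked for after the values had been seen. Of the 373 higher genes with another tested gene within 50 kb, 116 (31.1%) had a neighbour that was also higher, against 470 of all 3533 such genes (13.3%). For lower genes it was 145 of 518 (28.0%) against 655 of 3533 (18.5%). Among tested genes, the longest unbroken run held 6 higher genes on chromosome 4 (chr4:102741297-103215164, mm10), in the order Sgip1, Tctex1d1, Insl5, Wdr78, Mier1 and Slc35d1. Gm12709 and BB031773 lie within its span and were not tested. The next held 4 each, Pmm1, Xrcc6, Desi1 and Snu13 on chromosome 15, and Ripor1, Gm5914, Ctcf and Carmil2 on chromosome 8. No run of lower genes was longer than 4.

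Insl5 heads the list of higher genes and lies inside that run at chr4:103017872-103026842 on the minus strand. It encodes an insulin-like peptide hormone known mainly from the colon. It was at 179, 119, 128 and 137 CPM in thymocytes and at 0.540, 0, 0 and 0 in other T cells, with a single UMI there (ratio of pooled levels 511, counting interval 90.5 to 20331). Its 4 thymocyte libraries lay close together whatever the diet or label. Tctex1d1, a dynein light chain homologue at chr4:102978606-103005594 (plus strand), stood at 132, 117, 122 and 109 against 0.540, 2.35, 4.55 and 0 (5.85 ± 0.47), and Wdr78, a dynein intermediate chain at chr4:103038065-103114555 (minus strand), at 181, 185, 168 and 81.9 against 3.24, 9.40, 4.55 and 2.57 (4.69 ± 0.34). Mier1, a transcriptional regulator at chr4:103114390-103165754 (plus strand) that overlaps the start of Wdr78, was abundant in both, at 2854, 3022, 3163 and 3249 against 211, 239, 332 and 300.1 (3.19 ± 0.12, adjusted p = 1.71e-07 by edgeR). Sgip1 (3.01 ± 0.44) and Slc35d1 (2.41 ± 0.29) closed the run at either end.

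All 6 genes of the run were also higher than in cycling cells. Printed are the promoters of Insl5 and Tctex1d1, with the largest fold changes of the run against other T cells, and of Mier1, with its smallest adjusted p, a choice made after these values were seen. They are from RefSeq on GRCm38.p6, from 250 bases before the start to 50 after it, 5′ to 3′ on the strand of the gene, for Insl5 at chr4:103026679-103026978 (minus), Tctex1d1 at chr4:102978453-102978752 (plus) and Mier1 at chr4:103115310-103115609 (plus). Capitals mark matches to 4 motifs searched on both strands: the E-box forms CAGCTG and CACCTG, the Runx motif TGTGGT and the nuclear receptor half-site AGGTCA.
Insl5: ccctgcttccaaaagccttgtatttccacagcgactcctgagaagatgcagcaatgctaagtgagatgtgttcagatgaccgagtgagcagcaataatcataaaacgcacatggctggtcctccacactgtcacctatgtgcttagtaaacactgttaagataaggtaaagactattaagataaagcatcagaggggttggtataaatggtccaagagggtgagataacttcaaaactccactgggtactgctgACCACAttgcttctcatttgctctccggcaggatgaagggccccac
Tctex1d1: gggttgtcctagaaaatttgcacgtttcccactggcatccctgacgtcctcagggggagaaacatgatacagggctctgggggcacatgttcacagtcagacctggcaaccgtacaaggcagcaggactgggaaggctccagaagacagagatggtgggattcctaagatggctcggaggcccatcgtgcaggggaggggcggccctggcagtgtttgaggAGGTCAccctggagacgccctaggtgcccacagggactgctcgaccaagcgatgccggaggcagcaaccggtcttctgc
Mier1: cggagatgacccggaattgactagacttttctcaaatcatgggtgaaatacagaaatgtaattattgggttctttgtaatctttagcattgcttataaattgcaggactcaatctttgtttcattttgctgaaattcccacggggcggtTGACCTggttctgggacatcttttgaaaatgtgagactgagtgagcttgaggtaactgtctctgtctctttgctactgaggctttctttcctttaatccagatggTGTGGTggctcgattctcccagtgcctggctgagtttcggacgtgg
In this window Insl5 held the Runx motif in reverse (ACCACA), Tctex1d1 the half-site AGGTCA, and Mier1 that half-site in reverse (TGACCT) and the Runx motif. RefSeq lists a further start for Insl5 and for Mier1, and 3′ counts do not show which start was used. At its further start Insl5 held CACCTG in reverse (CAGGTG) and no Runx motif, and Mier1 held only the Runx motif. Of 27025 promoters of the same length, 16.1% held CAGCTG, 20.0% CACCTG, 16.9% TGTGGT and 16% AGGTCA. Among 477 higher genes with a promoter the shares were 17.6%, 18.2%, 10.7% and 11.9%, and among 3291 tested genes called neither way 12.4%, 15.0%, 12.4% and 11.5%. A match is a run of letters and not evidence of binding.

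**Figure D4:**
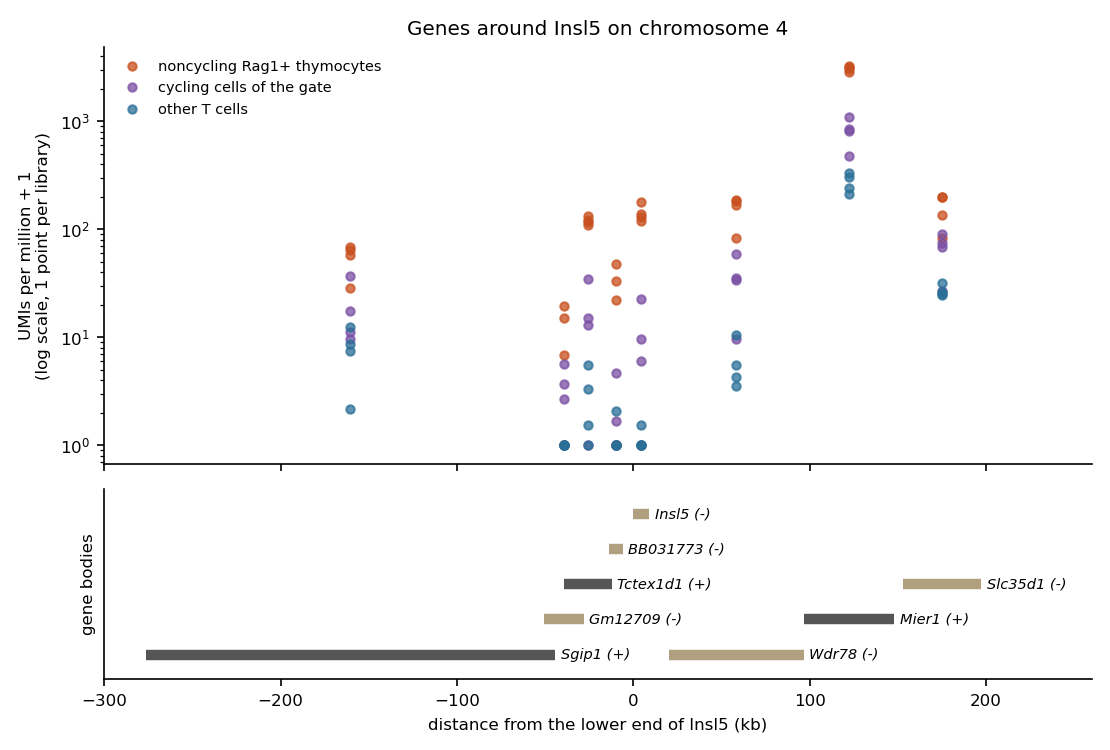
Top, levels (CPM plus 1, log axis) of 8 genes along chromosome 4 in thymocytes, cycling cells and other T cells, 1 point per library. Bottom, the gene bodies to scale, as distance in kb from the lower end of Insl5. Insl5, Tctex1d1, Wdr78 and Mier1 are highest in thymocytes in every library; cycling cells lie between them and the other T cells in Lox CTR, KO CTR and Lox HFD, while the 6 cycling cells of KO HFD are at 0 for Insl5 and Tctex1d1.

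The nearest population, cycling cells of the same gate, differs from the thymocytes by the limit on Mki67 and Top2a alone. With 3 libraries (KO HFD had only 6 cycling cells) and 6002 genes, 1404 genes (23.4%) were higher in the noncycling thymocytes and 1507 (25.1%) lower by the same edgeR test, with a median log2 fold change of 0.04 over all genes. DESeq2 on the same genes called 637 higher and 996 lower, and in cells without a UMI of Col1a1, Col3a1 or Lum edgeR called 896 and 1002 of 4213. Without Lox CTR, with 2 libraries left, 1085 were higher and 1457 lower. The noncycling cells had more alpha chain, Cd4, Ccr9, signalling and Bim RNA, and their recombinase, beta chain and Cd8a RNA was not called. All 22 tested replication and mitosis genes were lower (median -3.82), which the rule largely fixes and which is given only as a description. Stmn1, a tubulin regulator of dividing cells, stood at 420, 363 and 383 CPM against 3191, 2992 and 2895, and Pclaf, a partner of PCNA, at 16.2, 11.4 and 17.4 against 1241, 1506 and 1423.

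Receptor genes divided by chain. Trac was at 513, 539 and 470 CPM in noncycling thymocytes against 116, 95.4 and 154 in cycling ones (1.94 ± 0.16, adjusted p = 2.44e-08 by edgeR). Trbc1 and Trbc2 were not called, at 0.06 ± 0.11 and -0.14 ± 0.09. Trdc, whose gene is deleted when the alpha chain rearranges, was at 65.0, 50.3 and 29.0 against 181, 156 and 166 and fell by 1.89 (± 0.21). Ptcra, the surrogate alpha chain of the pre-TCR, fell by 1.09 (± 0.32, adjusted p = 0.00891 by edgeR), and this call was lost with DESeq2 and without KO CTR. Cd3d, Cd3e and Cd247 were higher by 0.59, 0.68 and 0.94. Of 9 tested genes for receptor chains and CD3, 4 were higher, 2 lower and 3 neither (median 0.06). Of the coreceptors, Cd4 was higher (381, 434 and 499 against 111, 129 and 134, 1.61 ± 0.14), while Cd8a was at 0.10 ± 0.12.

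Recombination genes were mostly not called between the stages. Rag2 was at 51.1, 34.3 and 46.4 CPM against 19.9, 37.3 and 49.1 (0.22 ± 0.32), Xrcc6 at -0.13 ± 0.14 and Dntt at -0.15 ± 0.11, none of them called. Dclre1c (2.17 ± 0.24) and the ligase Lig4 (1.17 ± 0.25), which act on cut ends, were higher, and Hmgb1 was lower by 1.69 (± 0.08). Of 7 tested, 2 were thus higher, 1 lower and 4 neither, with a median of -0.06. Over all genes tested 23.4% were higher and 25.1% lower. Rag2 rested on 45 UMIs in noncycling and 107 in cycling cells, so the lack of a call does not show equal levels.

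Signalling genes were higher as a group: 12 of 15 were higher and none lower, with a median of 1.16. Cd5, which tracks receptor signal strength, was at 71.9, 171 and 98.7 against 20.8, 34.0 and 30.5 (1.83 ± 0.24). Rasgrp1, which couples the receptor to Ras, was higher by 1.47 ± 0.19, Grap2 by 1.28 ± 0.19, Cd28 by 1.26 ± 0.15 and Themis by 1.20 ± 0.14. Lat, Cd2 and Fyn were not called. All 3 noncycling libraries lay above all cycling ones for each of the genes named as higher here. Such a lack of overlap was common in this comparison: 2555 of the 6002 genes tested were called with none.

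Of 18 tested transcription factors 11 were higher and 1 lower (median 0.62). Id2, which was low against other T cells, was higher here (1.97 ± 0.26). Its level in all kept cells was 268, 225 and 272 CPM. Stromal and macrophage genes also rose in this comparison, and their part in the Id2 value was not tested. Myb and Satb1 were higher by 0.88 ± 0.12 and 0.87 ± 0.10. Tcf3, which encodes E2A, fell by 0.64 (± 0.21), and Tcf7 was at 0.04 ± 0.10. In the Notch pathway Hes1, a target of Notch, fell by 1.53 (± 0.32), Rbpj was higher by 1.0 ± 0.20 and Notch1 was not called.

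Homing and survival genes followed. Ccr9 was at 917, 1223 and 1236 CPM against 198, 195 and 237 (2.23 ± 0.12, adjusted p = 1.54e-10 by edgeR), one of 6 higher genes among 10 tested for homing and surface (median 0.70). Ly6d, so different from other T cells, was at 0.15 ± 0.10 and not called. Bcl2l11 was at 564, 697 and 714 against 198, 145 and 183 (1.72 ± 0.15), with Mcl1 (0.89 ± 0.12), Pdcd4 (1.10 ± 0.12) and Bcl2a1b (5.19 ± 0.58) higher, so 4 of 9 survival genes were higher and 1 lower (median 0.23). Of 11 tested genes of positive selection, 6 were higher and none lower (median 0.57), among them Egr1 (1.77 ± 0.21), Cd27 (1.54 ± 0.13), Gimap9 and Cd53 (3.12 ± 0.52). Bcl2a1b and Cd53 are also expressed by macrophages, all 4 tested macrophage genes rose in this comparison (median 2.86), and their part in these 2 values was not tested. Cd69, Itm2a and Bcl2, which mark cells after selection, were at 0.73 ± 0.39, -0.08 ± 0.39 and 0.57 ± 0.36 and were not called.

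Smaller lists gave mixed results. For maturation and egress 3 of 5 tested genes were higher (median 1.31), with Gimap6 at 429, 375 and 296 CPM against 97.9, 71.4 and 27.1. MHC class I genes divided: H2-K1, H2-D1, B2m and Tapbp were higher by 1.0, 0.92, 0.45 and 0.93, and Tap1, Psmb9, Psmb8 and Tap2 were lower by 1.35, 1.23, 0.97 and 0.57. Heavy and light chain genes thus went one way and the proteasome and transporter genes the other. H2-D1 stood at 912, 852 and 1002 CPM in all kept cells. Stromal and macrophage genes rose in the same comparison, and their part in the higher MHC class I values was not tested. Of 2 tested cytotoxic genes Id2, which is also a list member there, was higher and Gzma lower. Of 9 early stress genes 6 were higher (median 0.69). Summed, the stress genes were at 6546, 4292 and 3935 CPM against 3009, 2877 and 2388, and in all kept cells at 14508, 12873 and 11613. Fos was at 1525, 256 and 302 CPM and Egr1 at 346, 107 and 221, both highest in Lox CTR, where the smooth muscle genes were also highest, and all 6 fibroblast and 5 smooth muscle genes rose in the same comparison (medians 1.22 and 2.28). Their part in the stress and Egr1 values was not tested.

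Of the 15 highest genes by the same rule, 14 are named: Bcl2a1b, Ctss, Gramd3, Cxcl2, Cd83, Filip1l, Fcer1g, Insl5, Gm38405, Tcp11l2, Arap2, Spo11, Fmo2 and Sdc4. Insl5 was at 179, 119 and 128 CPM against 21.8, 8.67 and 5.08 (3.33 ± 0.28), and Mier1, Tctex1d1, Wdr78, Sgip1 and Slc35d1 of the same run were higher by 1.54, 2.42, 2.02, 1.30 and 1.06. Spo11, the enzyme that cuts DNA in meiosis, was at 41.8, 57.1 and 110 against 8.16, 7.34 and 3.39 (2.94 ± 0.41). Ctss, Fcer1g, Cd83 and Cxcl2 are expressed by macrophages, and macrophage RNA moved with this comparison: Ctss stood at 51.1, 45.7 and 551 CPM, highest in Lox HFD, against 6.34, 8.67 and 6.78.

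Stromal and macrophage markers made up a larger part of the shallower cells. All 6 fibroblast, all 5 smooth muscle and all 4 macrophage genes tested were higher in noncycling than in cycling cells (medians 1.22, 2.28 and 2.86), with Pecam1 (1.0 ± 0.21) and Tyrobp (2.87 ± 0.39). In cycling cells the summed smooth muscle genes were at 1169, 157 and 139 CPM, the fibroblast genes at 643, 339 and 207 and the macrophage genes at 147, 181 and 158, against the higher sums given above. Restricted to cells without a UMI of Col1a1, Col3a1 or Lum, 896 genes were higher and 1002 lower of 4213 tested. Of the remaining lists, both tested B cell genes and the regulatory T cell gene Ctla4 were not called, and the gamma delta gene tested was Trdc.

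The 10 lowest genes against cycling cells were Tacc3, Esco2, Pbk, Spc25, Ckap2l, Bub1, Nusap1, E2f8, Rad51ap1 and Aspm. They follow from the split and are named as a description. Except for Nusap1, with 1 UMI, they had 0 UMIs in the thymocytes of these 3 libraries, and Tacc3 was at least 71.1-fold lower.

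The stages also differed in shares of cells with a UMI at equal depth. After thinning to 2000 UMIs per cell, Ccr9 was detected in 81.1% of noncycling thymocytes, 32.5% of cycling cells and 11.7% of other T cells. Trac was detected in 54.6%, 21.1% and 48.0%, and Bcl2l11 in 67.0%, 32.5% and 16.9%. Before thinning the cycling cells, at their greater depth, had shares of 69.1% for Ccr9, 63.4% for Trac and 81.4% for Bcl2l11. Trbc2 was near saturation in both stages (97.4% and 98.5% thinned). Ptcra was found in 6.17% of noncycling and 7.73% of cycling cells when thinned, close to each other, although 8.54% and 40.7% had a UMI at full depth. Il7r stood at 1.32% of thymocytes, 0% of cycling cells and 49.9% of other T cells.

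**Figure D5:**
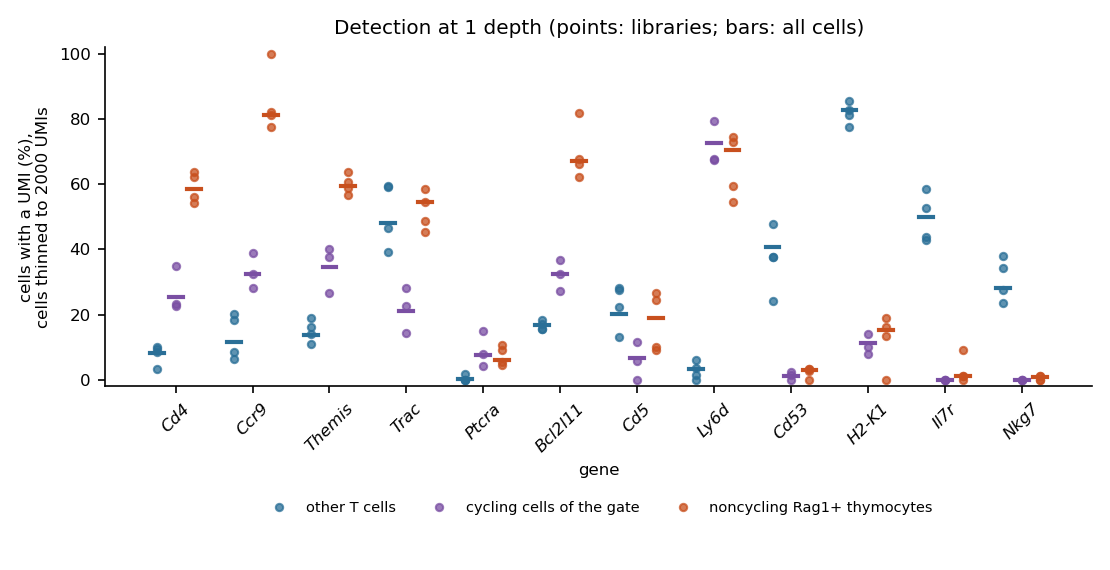
Percent of cells with at least 1 UMI (y axis) of 12 genes (x axis) after each cell was thinned to 2000 UMIs, for thymocytes (227 cells), cycling cells (194) and other T cells (419). Bars are all cells of a population and points are libraries. Ccr9, Cd4 and Bcl2l11 are highest in thymocytes, H2-K1, Il7r and Nkg7 in other T cells, and Trac is low in cycling cells.

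Within the thymocytes, 192 had a Cd4 UMI and 54 had none. Those without were slightly shallower (median 3379.5 against 3929.5 UMIs), and detection of Cd4 is itself limited by depth. At equal depth Dntt was found in 57.1% of those without and 79.5% of those with Cd4, Cd8a in 61.9% and 78.4%, Ccr9 in 76.2% and 82.2%, Themis in 61.9% and 58.9% and Trac in 54.8% and 54.6%. Il7r was found in 2.38% and 1.08%; its summed level was 107 CPM in cells without Cd4, where a single cell held it, and 10.4 CPM in cells with Cd4. These cells come from the same libraries and no test was made between them.

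Between libraries, thymocytes were compared gene by gene only for the normocholesterolemic pair, with 97 and 96 cells. There is 1 pool per group and no test was made, so the values compare these 2 libraries. Over 1540 genes with at least 100 UMIs in the pair, 22 (1.43%) were at least 2-fold higher in the library labelled KO CTR and 41 (2.66%) at least 2-fold lower, with a median log2 ratio of 0.08. The count past 2-fold was 63 in all and 40, among 1488 genes, when the 2 cells marked as doublets were left out. Recombination genes ran from -0.07 to 0.12 (4 genes), receptor chains and CD3 from -0.03 to 0.61 (7 genes) and transcription factors from -0.92 to 0.73 (12 genes, median 0.44), none past 2-fold. Signalling genes ran from -0.13 to 1.24 (10 genes, median 0.35), and 2 were past 2-fold. Notch, coreceptor, homing, survival, MHC class I, replication and egress genes had none past 2-fold, and positive selection had 1 of 5.

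The extremes were mostly genes of other cell types and stress genes. Hspb1 (-4.15, counting interval -5.18 to -3.37), Hspa1b (-4.08), Tagln (-3.73), Gadd45g (-3.65) and Acta2 (-3.58) were lowest in KO CTR relative to Lox CTR. Hist1h4d (1.88), Gm42418 (2.04), F13a1 (2.2), C1qb (2.54) and C1qa (2.69) were highest. Hspb1, a small heat shock protein of muscle, had 218 UMIs in Lox CTR, of which 81 remained without the 2 cells marked as doublets, and its log2 ratio was then -2.81. Hspa1b went from 108 to 43 UMIs in Lox CTR in the same way, and its log2 ratio was then -2.85. Tagln went from 1042 to 748 UMIs and Acta2 from 1407 to 1040, with log2 ratios then of -3.34 and -3.23. All 5 smooth muscle genes (median -3.56), 2 of 2 fibroblast genes, 2 of 3 macrophage genes and 3 of 8 early stress genes were past 2-fold. Gm42418, which overlaps a ribosomal RNA repeat, was at 4293, 17650, 25655 and 21132 CPM in thymocytes and at 4193, 17634, 22416 and 22098 in other T cells, so Lox CTR stood apart in both populations.

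Genes of the targeted pathway are a description, chosen with the values known. Against other T cells, at 104, 141, 95.5 and 152 CPM, Nfe2l2 was lower in thymocytes by 0.91 (± 0.28, adjusted p = 0.0359 by edgeR). Lox HFD did not share this direction, since its thymocyte level given above was slightly higher, and the ratio was largest in Lox CTR. Nqo1, a target of Nrf2, had 0 UMIs in thymocytes, which allows up to 2.78 CPM over all of them. Slc7a11, the cystine transporter and an Nrf2 target in other cells, was instead at 297, 315, 360 and 328 CPM against 36.7, 3.53, 2.27 and 5.14 in other T cells (4.22 ± 0.52, adjusted p = 0.000159 by edgeR) and against 69.8, 92.7 and 171 in cycling cells of the first 3 libraries (1.48 ± 0.17). Its 4 thymocyte libraries lay between 297 and 360 CPM. Summed UMIs cannot tell fewer cells with a gene from less RNA per cell.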

How the data were processed

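Single-cell RNA-seq (10x Chromium 3′ v3.1) was made by the authors from 4 pooled aortic arch libraries. The deposited values are raw UMI counts per gene and barcode, mapped to mm10 and counted with Cell Ranger 6.1.2, per the labels and the study's methods, with cells called but not filtered. No annotation or comparison column of the authors was used. Kept cells had 200 to 6000 genes and at most 15% mitochondrial UMIs, as in the study. Scrublet in scanpy 1.11.5 marked doublets, which stayed in.

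UMIs were summed per library and population, requiring 10 cells per population. Sums were tested with edgeR 4.0.16 (filterByExpr, TMM, quasi-likelihood, library as block) in R 4.3.3, with p-values adjusted over all genes tested by Benjamini-Hochberg. Standard errors were derived from the fold change and F. The code was tested on simulated data. Genes of the rules were left out of the tests. DESeq2 1.42.0, thinning to 2000 UMIs, other limits and each library left out were tried. Shares have exact Clopper-Pearson and levels exact Poisson 95% intervals, covering counting error only. Named genes were the 15 highest and 10 lowest by the stated rule, plus gene lists. Pairs of libraries were compared where each had 50 thymocytes, with 5 genes named at either end. Members and lists were chosen with earlier results of these data known, and the settings on stromal UMIs, on Nkg7 and on Pdgfra in other T cells after seeing the data. A few items are not reported here. Gene positions came from GENCODE M21 and promoters from RefSeq. Other software was Python 3.11.15 with pandas 2.3.3, scipy 1.17.1, numpy 2.4.6 and matplotlib 3.10.9.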

Additional observations from a re-analysis of the deposited data

How the results depend on the processing

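Depth and the few pools limit these results: KO HFD held 11 thymocytes, and each condition is 1 pool. Against other T cells the lower genes numbered 1363 of 16325 with no filter on low counts; thinned to 2000 UMIs, 360 were higher and 495 lower of 2603 tested. Leaving out 1 library gave 425 to 537 higher and 689 to 746 lower, DESeq2 437 and 741, and no replicate block 600 and 830. Against cycling cells DESeq2 gave 637 higher and 996 lower, thinning 532 and 653 of 2785 tested, and cells without a UMI of Col1a1, Col3a1 or Lum (chosen after seeing the data) 896 and 1002; leaving out 1 library, so that 2 remained, gave 1042 to 1434 and 1242 to 1649, and no replicate block 1211 and 1364. Of 63 genes past 2-fold between the normocholesterolemic pair, 40 were past it without doublets, among 1488 genes; the cause was not tested. Gsn, Id3 and Dcn went from 0.22, 0.18 and 0.61 to -2.75, -1.31 and -2.93 when other T cells had no limit on Pdgfra, also added after seeing the data, which brings Pdgfra positive cells into the comparison. Tagln and Myh11, at -0.43 and -0.48, ranged from -1.01 to 0.56 and from -1.42 to 0.84 when 1 library was left out, and turned without KO CTR. Those 5 were not called in the main test. Of 4201 other values for 353 list and named genes, 3861 kept direction and call, 101 changed sign while called neither way, 171 lost the call, 63 gained it and 5, those of the genes just named, changed sign with a call on one side. Shares of thymocytes stayed within counting error under each limit tried. No blocked value beyond those above was needed, since library is the block throughout.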
